A study of Mus musculus with 574 samples.

Results

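The genes described here encode the voltage-gated sodium and calcium channels and the potassium channels of the developing mouse ventral midbrain, with their auxiliary subunits. They were chosen by symbol (Kcn followed by a letter, Scn followed by a digit, Cacna, Cacnb or Cacng) and selected on measured level, which had to reach 1 RPKM (read counts scaled to transcript length and library depth) in at least 6 of 24 pools of cells. Of the rows with such a symbol in the deposited table of pools, which holds 23706 genes, 79 passed and 47 did not. The 79 rows cover 77 genes, since Kcnb2 and Kcnmb4 each have another row tied to 1 transcript. Among the 47 rows left out, 18 reached 1 RPKM in no pool and 29 in 1 to 5 pools. Just inside the threshold lay rows such as Kcnk3, Kcnh6 and Kcna2 at 6 pools and Kcnt2 at 7, with highest values of 2.23 to 3.86 RPKM. Just outside lay rows such as Kcnrg, Kcnk13, Kcna4 and Kcnj11 at 5 pools, with highest values of 2.14 to 3.08 RPKM.

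The cells came from the ventral midbrain of C57BL/6 embryos that all carried 1 copy of an Lmx1a-EGFP reporter, which makes cells that express the transcription factor gene Lmx1a green (GFP+). Bulk libraries were pools of 100 GFP+ or GFP- cells at E10.5 or E13.5 (E for embryonic day), with 6 pools in each of the 4 groups. A further 550 libraries were single cells, of which 24.9% were taken at E10.5, 16.4% (90 cells) at E11.5, and 32.4% and 26.4% at E12.5 and E13.5. All were made with Smart-seq2, which reads full-length cDNA, and the series asks how the dopamine and subthalamic lineages of this region are related. No treatment was given, and the labels name no embryo or litter, so p-values measure only the spread between pools, and this spread may be technical. For single cells each stage counts as 1 sample. The reporter marks cells that use the Lmx1a gene and not a single cell type.

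Voltage-gated sodium channels carry the rising phase of the action potential, and voltage-gated calcium channels couple depolarization to transmitter release, gene expression and pacemaking. Potassium channels set the resting potential, repolarize the spike and control firing rate. Neural progenitors depend mostly on resting potassium conductances, and neurons add voltage-gated channels as they leave the cell cycle and extend axons. Mature midbrain dopamine neurons are known for slow pacemaking, in which L-type and T-type calcium channels, A-type and SK potassium channels and GIRK channels take part.

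The libraries set the following frame. Estimated depth was 1.30 to 3.67 M reads per pool (median 2.76), so that 1 RPKM of a 5 kb transcript was about 13.8 reads in a median pool. EGFP lay between 170.4 and 231 RPKM in E10.5 GFP+ pools and at most at 5.82 in E10.5 GFP- pools, and it was 51.1 to 80.3 in E13.5 GFP+ pools and listed at 0 in all 6 E13.5 GFP- pools. The summed RPKM of 12 neuronal marker genes was 389 to 694 in E10.5 GFP+ pools, 1837 to 3454 in E10.5 GFP- pools, 5822 to 6407 in E13.5 GFP+ pools and 6224 to 6801 in E13.5 GFP- pools. Progenitor markers, 11 genes, ran the other way at 3575 to 4193, 2993 to 3884, 1543 to 2275 and 607 to 1581. Markers of other cells were also found in GFP- pools, at E10.5 in particular, where 9 red cell markers summed to 42.5 to 78499 RPKM in E10.5 GFP- pools and to 38.8 to 81.6 in E10.5 GFP+ pools, 9 microglia markers to 0 to 642 against 0 to 1.14, and 9 mesenchyme markers to 136.5 to 358 against 5.44 to 29.9. At E13.5 the GFP- pools reached 23246 for red cell markers and 349.9 for microglia markers at their highest, with medians of 92.4 and 1.16. In pools, fewer cells of a type and less RNA per cell cannot be told apart.

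Promoters are shown for 4 channel genes that behaved differently in the pools: Cacna1b and Cacng2, whose rise with stage was steeper in GFP+ pools, Cacna2d1, the marker gene of the set, and Kcnj10, which was high in GFP+ pools at both stages. Each line holds the 250 bases before the transcription start, read from RefSeq on GRCm38.p6, 5′ to 3′ on the gene's own strand. The windows are chr2:24763153-24763402 (minus strand), chr15:78119281-78119530 (minus strand), chr5:15934441-15934690 (plus strand) and chr1:172340960-172341209 (plus strand). Capitals mark CAGCTG, an E-box core that proneural factors can bind, and would mark CAGCACC or GGACAG, the left and right arms of the site of the repressor REST, on either strand.
Cacna1b: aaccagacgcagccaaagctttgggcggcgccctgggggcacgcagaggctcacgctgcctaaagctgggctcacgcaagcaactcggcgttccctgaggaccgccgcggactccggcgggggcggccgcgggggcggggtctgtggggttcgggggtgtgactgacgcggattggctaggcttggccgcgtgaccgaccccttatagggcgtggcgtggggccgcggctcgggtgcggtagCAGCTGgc
Cacng2: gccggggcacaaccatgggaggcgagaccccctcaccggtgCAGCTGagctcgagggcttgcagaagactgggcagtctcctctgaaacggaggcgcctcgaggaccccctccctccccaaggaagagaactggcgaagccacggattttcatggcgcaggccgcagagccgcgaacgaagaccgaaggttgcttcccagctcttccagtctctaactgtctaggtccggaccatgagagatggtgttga
Cacna2d1: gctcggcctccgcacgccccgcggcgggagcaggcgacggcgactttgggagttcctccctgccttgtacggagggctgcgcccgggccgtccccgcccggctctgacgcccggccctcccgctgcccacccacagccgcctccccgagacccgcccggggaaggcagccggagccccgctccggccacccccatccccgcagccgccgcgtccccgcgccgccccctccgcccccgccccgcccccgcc
Kcnj10: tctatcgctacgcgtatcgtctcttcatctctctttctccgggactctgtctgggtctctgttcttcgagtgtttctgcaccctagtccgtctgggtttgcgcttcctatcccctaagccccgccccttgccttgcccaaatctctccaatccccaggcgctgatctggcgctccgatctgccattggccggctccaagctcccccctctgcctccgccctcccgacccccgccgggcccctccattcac
The E-box core lay 8 bases before the start of Cacna1b and 209 bases before that of Cacng2, and none of the 3 strings lay in the windows of Cacna2d1 and Kcnj10. The promoter table held 56 of the 77 genes, and Scn3a and Scn3b were not among them. CAGCTG, which is its own reverse complement, lay in the windows of 16 of the 56 genes (28.6%), against 14.7% of all 27025 genes in the table and 14.53% of 10013 genes tested in the pools. CAGCACC lay in 5 of 56 (8.93%, against 6.56% of all genes) and GGACAG in 16 of 56 (28.6%, against 20.97% of all genes). The windows held a median of 16 CG pairs, against 17 in the genes tested. These are matches of letters and not measured binding, and no difference in share was tested.

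More channel genes were on at E13.5 than at E10.5 in both classes. A row was counted as on in a group where at least 5 of its 6 pools reached 1 RPKM. By this measure 25 rows were on in E10.5 GFP+ pools, 34 in E10.5 GFP- pools, 60 in E13.5 GFP+ pools and 61 in E13.5 GFP- pools. The summed level of the 79 rows had medians of 224, 289.7, 1017 and 1097 RPKM in these groups, and pools of different stages did not overlap (198 to 343 at E10.5, 942 to 1167 at E13.5). These counts and sums are shaped by the selection rule, which used the same 1 RPKM cut on the same pools. By that rule 34 rows passed only through the E13.5 pools and 3 only through the E10.5 pools. The share of all genes on in each group is not given. On in all 4 groups were 20 rows, among them the calcium channel genes Cacnb3, Cacna1h and Cacna2d1, the sodium channel genes Scn3a, Scn3b and Scn8a, and the potassium channel genes Kcnd3, Kcnh2 and Kcnn3. On at E13.5 in both classes and at E10.5 in neither were 22 rows, such as Scn1a, Scn2a1, Scn9a, Cacna1d, Cacna1e, Kcnh7 and Kcnma1. Another 9 were on in every group but the E10.5 GFP+ pools: Cacna1b, Cacng2, Cacng3, Cacng5, Cacnb1, Kcnip1, Kcnh4, Kcnk10 and Kcna6.
Some patterns held few genes. Kcnj6, Kcnj9, Kcnk9 and Cacna1c were on in E13.5 GFP+ pools alone, and Kcnj10 in both GFP+ groups alone. In E13.5 GFP- pools, however, Kcnj9, Kcnk9 and Cacna1c reached up to 2.45, 5.86 and 1.60 RPKM. Neither Kcnj9, Kcnk9 nor Cacna1c passed the limma test between the E13.5 classes given below. Kcnk5 was on in both E10.5 groups and in neither E13.5 group. Another 7 rows, among them Kcnd2, Kcnc2 and Kcnc4, were on in E13.5 GFP- pools alone, and 9 low rows were on in no group. None of the 7 passed the test between the E13.5 classes, and Kcnd2 reached up to 4.74 RPKM in E13.5 GFP+ pools. Such patterns depend on where the cut for on was set.

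**Figure D1:**
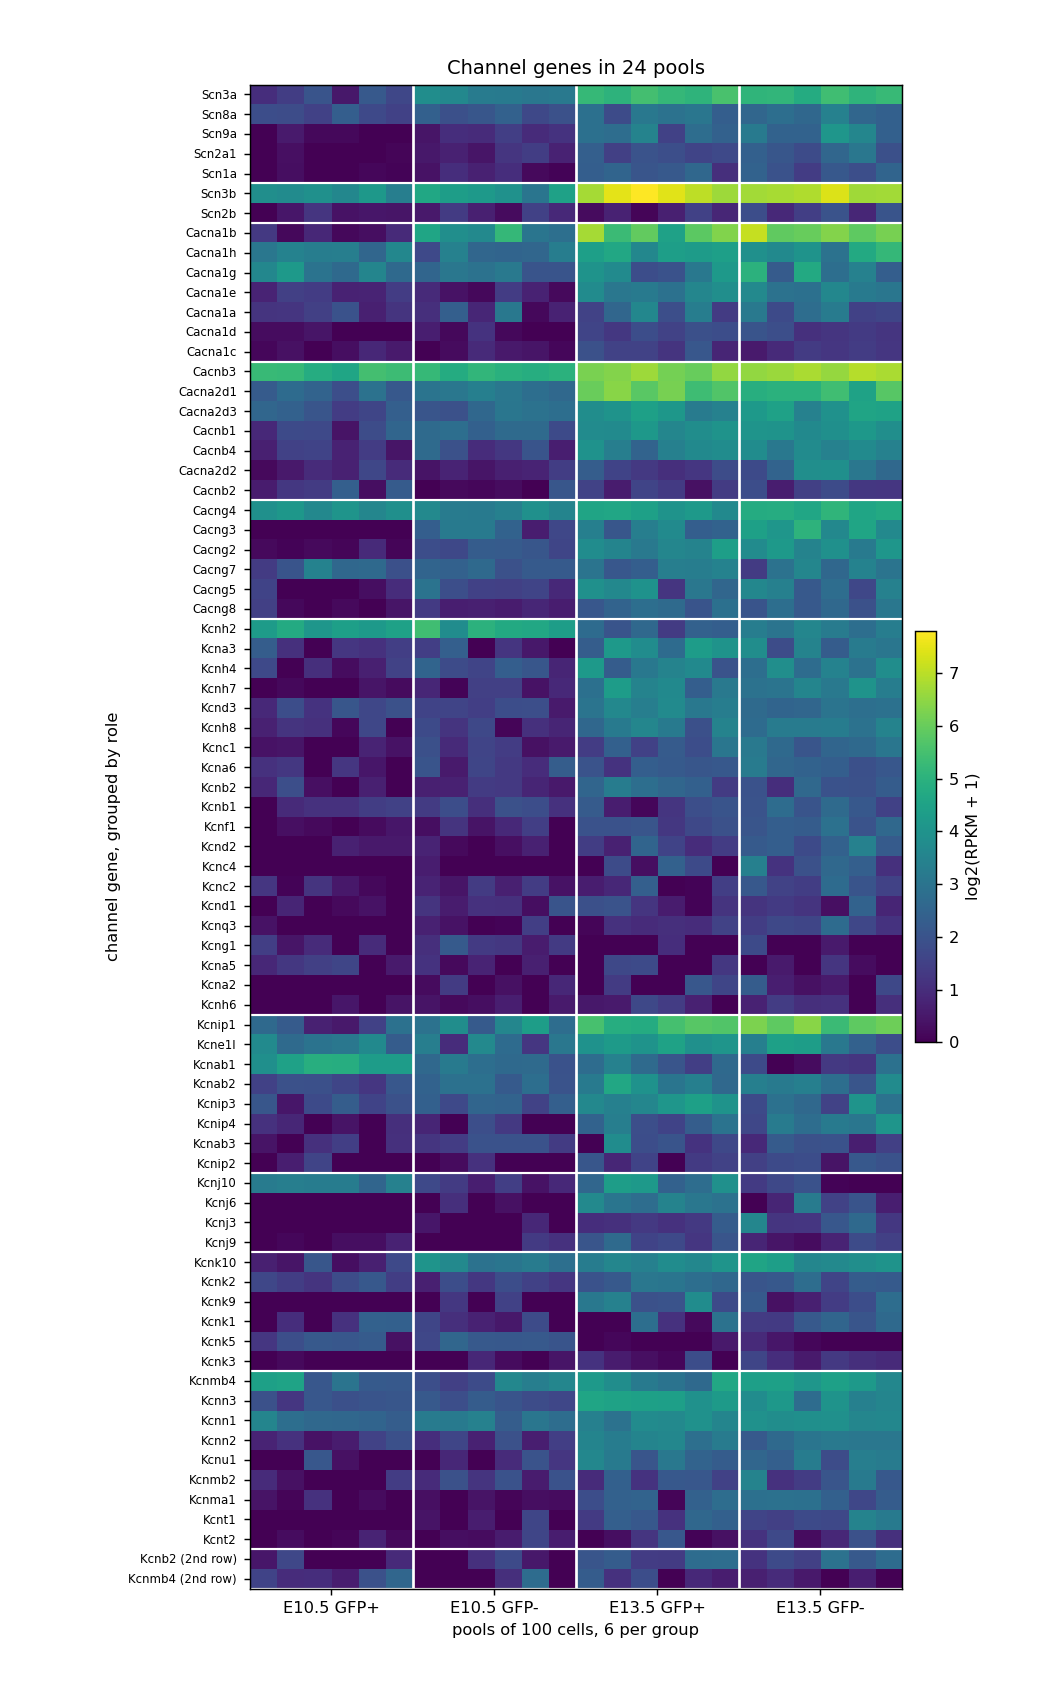
Heat map of log2(RPKM + 1) for the channel genes reported here (y axis, grouped by role and ordered by mean level) in the 24 pools (x axis, 6 per group). The columns of the 12 E13.5 pools are brighter in most rows, while Kcnh2, Kcnab1 and Kcnk5 are darker there than at E10.5.

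Stage was tested with limma on log2(RPKM + 1) across 15871 genes, and a gene was called at a Benjamini-Hochberg adjusted p under 0.05. In GFP+ pools 54 of the 79 rows rose from E10.5 to E13.5 and 3 fell, where 22.1% of all genes tested rose and 29.6% fell. In GFP- pools 54 rose and 4 fell, where 19.7% of all genes rose and 26.9% fell. The median log2 difference of the rows was 1.504 in GFP+ pools and 1.28 in GFP- pools, against -0.136 and -0.113 over all genes tested. The rule bears on these counts, because 34 of the rows reached their 6 pools only through the E13.5 libraries and so had to be higher there. Of the 41 rows that reached 6 of the 12 E10.5 pools by themselves, 27 rose in GFP+ and 26 in GFP- pools. The GFP+ and GFP- contrasts share no pool but use the same estimate of the spread. In both, 48 rows rose, 88.9% of each list. The rule bears on this overlap too, and the overlap over all genes tested is not given. Kcnip3, Kcnab2, Kcnab3, Kcnd1, Kcnj9 and Kcnmb2 passed in GFP+ pools alone, and Cacna2d2, Cacng4, Kcnc2, Kcnip2, Kcnk3 and Kcnmb4 in GFP- pools alone. Neuronal markers moved the same way (12 of 12 rose in GFP+ and 10 of 12 in GFP- pools), and their part in the channel result was not tested. In GFP- pools 6 of 8 red cell, 9 of 9 microglia and 7 of 7 mesenchyme markers fell with stage. With all pools scaled to the same total without globin genes, 55 channel rows rose and 4 fell in GFP- pools, and 58 rose and 3 fell in GFP+ pools.

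Of the sodium channel pore genes all 5 that were measured rose with stage in both classes. Scn3a, the embryonic form of the neuronal sodium channel (chromosome 2, 65457118 to 65567627, minus strand, GRCm38), had a lowest, median and highest level of 0.429, 1.90 and 3.54 RPKM in E10.5 GFP+ pools and 7.62, 8.42 and 13.1 in E10.5 GFP- pools. At E13.5 the values were 32.2, 36.1 and 45.9 in GFP+ and 26.7, 33.9 and 41.5 in GFP- pools. Every E13.5 pool was above every E10.5 pool, and at E10.5 the GFP+ pools lay wholly below the GFP- pools. The log2 difference with stage was 3.80 ± 0.23 (SE; adjusted p = 2.4e-13) in GFP+ and 1.76 ± 0.23 (SE; adjusted p = 3.95e-07) in GFP- pools. Scn8a, an adult isoform and a channel of the axon initial segment, had medians of 2.40, 3.02, 6.53 and 5.04 RPKM in the same order of groups, and rose by 0.90 and 0.66 on the log2 scale (adjusted p = 0.00454 and 0.0351). The second of these calls was lost in 6 of the fits that left out 1 pool (adjusted p up to 0.104). Scn1a, Scn2a1 and Scn9a had medians under 1 RPKM in both E10.5 groups and of 2.48 to 6.31 RPKM in the E13.5 groups.
Of the sodium channel beta subunits, which modify gating and take part in cell adhesion, Scn3b alone rose. It had 9.14, 12.97 and 16.9 RPKM (lowest, median, highest) in E10.5 GFP+ pools, 7.26, 18.4 and 24.3 in E10.5 GFP-, 100.4, 151.9 and 223 in E13.5 GFP+ and 101.9, 106.9 and 166.9 in E13.5 GFP- pools. The stages did not overlap in either class, whereas the 2 classes overlapped at each stage. Its stage difference was 3.42 ± 0.23 (SE; adjusted p = 1.73e-12) in GFP+ and 2.75 ± 0.23 (SE; adjusted p = 2.18e-10) in GFP- pools. Scn2b reached at most 3.08 RPKM in any pool and did not pass the stage test in either class.

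Calcium channel pore genes differed in onset, and 5 of 7 rose with stage in each class. Cacna1b, which encodes the pore of the N-type channel of presynaptic terminals (chromosome 2, 24603887 to 24763152, minus strand, GRCm38), had 0.118, 0.518 and 1.47 RPKM (lowest, median, highest) in E10.5 GFP+ pools and 6.16, 12.6 and 36.1 in E10.5 GFP- pools. At E13.5 it had 21.3, 58.1 and 107.9 RPKM in GFP+ and 57.3, 67.9 and 138.1 in GFP- pools. At E10.5 the classes did not overlap, and at E13.5 they did. Its stage difference was 5.16 ± 0.37 (SE; adjusted p = 7.9e-12) in GFP+ and 2.38 ± 0.37 (SE; adjusted p = 6.71e-06) in GFP- pools. The T-type gene Cacna1h was already at 9.04 and 4.97 RPKM (medians) at E10.5 and rose to 19.97 and 14.6, while the T-type gene Cacna1g, with medians of 8.80, 5.77, 10.1 and 7.93 RPKM, did not pass. Cacna1a, the P/Q-type gene, with 1.28, 0.942, 3.81 and 4.17, did not pass either. The R-type gene Cacna1e went from 1.16 to 9.73 RPKM in GFP+ pools (2.31 ± 0.26 SE, adjusted p = 3.57e-08) and from 0.483 to 7.72 in GFP- pools (2.59 ± 0.26 SE, adjusted p = 8.46e-09). Cacna1d, the L-type gene linked to dopamine neuron pacemaking, was low, at 1.42, 2.29 and 2.76 RPKM (lowest, median, highest) in E13.5 GFP+ and 1.10, 1.40 and 3.05 in E13.5 GFP- pools, against highest values of 0.356 and 1.23 RPKM in the E10.5 groups, so that the GFP- stages overlapped. It rose in both classes (1.504 ± 0.25 SE, adjusted p = 1.46e-05 and 1.10 ± 0.25 SE, adjusted p = 0.000767) and did not pass the GFP test at E13.5 (0.21 ± 0.25 SE, adjusted p = 0.715).

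Among the auxiliary calcium channel subunits 5 of 7 rose with stage in GFP+ and 6 of 7 in GFP- pools. Cacna2d1 encodes an alpha2delta subunit that carries calcium channels to the membrane and binds gabapentin (chromosome 5, 15934691 to 16374511, plus strand, GRCm38). It had 2.68, 4.17 and 6.63 RPKM (lowest, median, highest) in E10.5 GFP+ pools, 5.20, 7.27 and 9.34 in E10.5 GFP-, 40.3, 59.4 and 84.6 in E13.5 GFP+ and 21.4, 30.7 and 54.001 in E13.5 GFP- pools. Both E13.5 groups lay above all E10.5 pools, and the classes overlapped at each stage. The stage difference was 3.52 ± 0.22 (SE; adjusted p = 6.62e-13) in GFP+ and 2.09 ± 0.22 (SE; adjusted p = 1.8e-08) in GFP- pools, and at E13.5 the gene was higher in GFP+ pools by 0.83 ± 0.22 (SE; adjusted p = 0.0194). That last call was lost without E13.5 GFP+ replicate 2, GFP+ replicate 4 or GFP- replicate 5 (adjusted p up to 0.0594). Its relative Cacna2d2 was the reverse at E13.5, with 1.08, 1.71 and 3.95 RPKM in GFP+ and 2.37, 6.32 and 13.8 in GFP- pools (-1.40 ± 0.34 SE, adjusted p = 0.00897), a call lost at a pseudocount of 0.1 (adjusted p = 0.0507). Cacnb3, a beta subunit of N-type channels, was the highest of the calcium channel genes at E10.5, with medians of 36.6 and 30.4 RPKM, and rose to 76.9 and 104.8. Its stage differences, 1.204 ± 0.14 (SE; adjusted p = 8.38e-08) and 1.72 ± 0.14 (SE; adjusted p = 3.11e-10), were smaller than those of the pore gene Cacna1b, and this ordering of genes was not tested.

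Cacnb1 had 0.333, 2.33 and 4.78 RPKM (lowest, median, highest) in E10.5 GFP+, 2.40, 5.44 and 6.06 in E10.5 GFP-, 10.9, 12.9 and 16.8 in E13.5 GFP+ and 11.95, 14.504 and 16.9 in E13.5 GFP- pools. The stages were apart and the classes overlapped at each stage, with differences of 2.33 ± 0.27 (SE; adjusted p = 4.86e-08) and 1.43 ± 0.27 (SE; adjusted p = 8.19e-05) with stage and -0.99 ± 0.27 (SE; adjusted p = 0.0123) between the E10.5 classes. Cacnb4 and Cacna2d3 also rose in both classes, from E10.5 medians of 1.15 to 5.53 RPKM to E13.5 medians of 10.8 to 19.3.

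The gamma family includes AMPA receptor partners, so these genes bear on synaptic receptors as well as on calcium channels. With stage 4 of 6 rose in GFP+ and 5 of 6 in GFP- pools. Cacng2, which encodes stargazin, had 0.0576, 0.113 and 0.898 RPKM (lowest, median, highest) in E10.5 GFP+ and 2.09, 2.89 and 3.79 in E10.5 GFP- pools, without overlap. At E13.5 it had 7.88, 10.7 and 19.8 in GFP+ and 8.15, 13.3 and 17.6 in GFP- pools, with the classes overlapping. The stage difference was 3.38 ± 0.24 (SE; adjusted p = 8.6e-12) in GFP+ and 1.82 ± 0.24 (SE; adjusted p = 7.32e-07) in GFP- pools. Cacng3, another AMPA receptor partner, was listed at 0 in all 6 E10.5 GFP+ pools and had 0.541, 4.24 and 8.25 in E10.5 GFP- pools. At E13.5 it had 3.28, 6.85 and 12.3 RPKM in GFP+ and 11.4, 18.4 and 31.8 in GFP- pools, a log2 difference of -1.35 ± 0.37 (SE; adjusted p = 0.0235) between GFP+ and GFP-, a call lost at a pseudocount of 0.1 and in 5 fits without 1 pool (adjusted p up to 0.0842). Cacng4 differed from both, being present from the start with medians of 13.9 and 9.97 RPKM at E10.5 and of 18.9 and 26.3 at E13.5. It rose in GFP- pools (1.29 ± 0.18 SE, adjusted p = 9.78e-07) and did not pass in GFP+ pools (0.39 ± 0.18 SE, adjusted p = 0.0674).

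Of 22 rows for voltage-gated potassium channel subunits 15 rose in each class. The ERG-type gene Kcnh7 went from medians of 0.0593 and 0.835 to 9.01 and 8.36 RPKM (3.17 ± 0.31 SE, adjusted p = 2.07e-09 and 2.46 ± 0.31 SE, adjusted p = 2.37e-07). Kcnd3, a pore gene of the A-type current, had 7.02, 9.07 and 12.3 RPKM in E13.5 GFP+ and 4.66, 5.85 and 7.08 in E13.5 GFP- pools, up from medians of 2.38 and 2.004. It rose in both classes (1.76 and 1.28 on the log2 scale, adjusted p = 1.76e-06 and 0.000157), the E13.5 classes overlapped at their edges, and the GFP difference did not pass (0.60 ± 0.25 SE, adjusted p = 0.175).
Low but rising were Kcnb2, Kcnf1, Kcnc1 of the fast-spiking Kv3 group, and Kcnh8, with medians of 0.154 to 1.26 RPKM at E10.5 and 2.84 to 8.49 at E13.5, each passing the stage test in both classes.
Kcnh2 went the other way. This gene encodes the ERG1 potassium channel, best known for repolarizing the heart (chromosome 5, 24319589 to 24351604, minus strand, GRCm38). Its lowest, median and highest values were 16.1, 19.2 and 26.3 RPKM in E10.5 GFP+ pools and 12.9, 24.97 and 41.5 in E10.5 GFP- pools, and at E13.5 1.58, 4.19 and 5.68 in GFP+ and 6.05, 8.62 and 10.9 in GFP- pools. All E13.5 pools were below all E10.5 pools, and at E13.5 every GFP+ pool was below every GFP- pool. The stage differences were -2.11 ± 0.25 (SE; adjusted p = 5.67e-08) and -1.46 ± 0.25 (SE; adjusted p = 2.21e-05), and the GFP difference at E13.5 was -0.95 ± 0.25 (SE; adjusted p = 0.0162), a call lost when only the 2 groups compared were fitted (adjusted p = 0.0594).

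Partners of voltage-gated potassium channels split by subunit, with 5 of 8 rising and 1 falling in GFP+ pools and 3 rising and 1 falling in GFP- pools. Kcnip1, a calcium sensor that binds A-type channels, had 0.448, 2.79 and 6.49 RPKM (lowest, median, highest) in E10.5 GFP+, 3.66, 8.89 and 19.5 in E10.5 GFP-, 27.02, 44.6 and 54.3 in E13.5 GFP+ and 38.8, 61.7 and 84.98 in E13.5 GFP- pools, and rose by 3.604 ± 0.37 (SE; adjusted p = 6.77e-09) and 2.67 ± 0.37 (SE; adjusted p = 1.38e-06). Kcnip3, of the same family, had 9.48, 13.2 and 20.4 RPKM in E13.5 GFP+ and 1.88, 5.88 and 15.5 in E13.5 GFP- pools, and was higher in GFP+ pools by 1.22 ± 0.36 (SE; adjusted p = 0.0343), with the classes overlapping and the call lost in 6 fits without 1 pool (adjusted p up to 0.1). Kcnip4 went from medians of 0.557 and 0.370 to 4.22 and 7.84 RPKM and rose in both classes (1.84 ± 0.40 SE, adjusted p = 0.000336 and 2.35 ± 0.40 SE, adjusted p = 2.25e-05). Kcne1l, which encodes a small accessory subunit, had medians of 7.24, 6.60, 15.5 and 8.505 RPKM and did not pass. Kcnab1, a beta subunit that speeds inactivation, was the partner that fell. It had 13.9, 20.02 and 28.6 RPKM in E10.5 GFP+, 2.95, 5.44 and 8.06 in E10.5 GFP-, 1.74, 5.39 and 9.72 in E13.5 GFP+ and 0, 1.38 and 6.54 in E13.5 GFP- pools, with E10.5 GFP+ pools wholly above the other 3 groups. Its stage difference was -1.95 ± 0.38 (SE; adjusted p = 0.000105) in GFP+ and -1.43 ± 0.38 (SE; adjusted p = 0.00285) in GFP- pools.

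Of the 4 inward rectifier rows 3 rose in GFP+ and 2 in GFP- pools, and Kcnj10, which did not, followed the reporter instead. Kcnj10, a channel that buffers potassium in glia and their precursors (chromosome 1, 172341210 to 172374085, plus strand, GRCm38), had 4.78, 8.75 and 9.70 RPKM (lowest, median, highest) in E10.5 GFP+ and 0.312, 1.23 and 2.33 in E10.5 GFP- pools, and at E13.5 4.32, 9.95 and 19.3 in GFP+ and 0, 0.777 and 2.88 in GFP- pools. GFP+ pools lay above GFP- pools at both stages with no overlap, while the stages overlapped within each class. The GFP difference was 2.10 ± 0.39 (SE; adjusted p = 0.000388) at E10.5 and 2.53 ± 0.39 (SE; adjusted p = 8.23e-05) at E13.5, and neither stage difference passed (adjusted p = 0.723 and 0.641).
Kcnj6 encodes the GIRK2 subunit, through which dopamine autoreceptors silence dopamine neurons. It was listed at 0 in all 6 E10.5 GFP+ pools and reached at most 1.08 RPKM in E10.5 GFP- pools. At E13.5 it had 5.92, 7.37 and 11.7 RPKM in GFP+ and 0, 1.33 and 8.45 in GFP- pools. The E13.5 classes overlapped through 1 GFP- pool, and the gene was higher in GFP+ pools by 1.79 ± 0.37 (SE; adjusted p = 0.00229). Its stage change passed in both classes (adjusted p = 6.11e-08 in GFP+ and 0.013 in GFP- pools), the second not when only the 2 groups compared were fitted (adjusted p = 0.0536). Kcnj9 and Kcnj3, other subunits of this channel family, had medians of 2.72 and 1.30 RPKM in E13.5 GFP+ and of 0.726 and 2.38 in E13.5 GFP- pools.

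Leak channel genes, which set the resting potential, rose in 3 of 6 rows in GFP+ and 4 of 6 in GFP- pools, and 1 fell in each. Kcnk10, a leak channel of the TREK group, had 0.224, 0.605 and 3.22 RPKM (lowest, median, highest) in E10.5 GFP+ and 6.17, 7.79 and 15.6 in E10.5 GFP- pools, without overlap, and at E13.5 8.74, 11.2 and 15.4 in GFP+ and 10.9, 14.3 and 22.6 in GFP- pools. It rose in GFP+ pools by 2.64 ± 0.29 (SE; adjusted p = 2.44e-08). In GFP- pools the difference was 0.71 ± 0.29 (SE; adjusted p = 0.0492), and this call was lost in 16 fits without 1 pool (adjusted p up to 0.153). Kcnk2, a close relative, had medians of 1.91, 1.62, 5.56 and 3.53 RPKM and rose by 1.01 and 0.78 on the log2 scale (adjusted p = 0.00269 and 0.0201, the second call being lost in 2 fits without 1 pool). Kcnk5, an acid-sensitive leak channel, was the row that fell: it had 0.268, 2.999 and 3.76 RPKM in E10.5 GFP+ and 2.16, 3.47 and 4.98 in E10.5 GFP- pools, and at most 0.453 and 0.890 at E13.5. The GFP+ stages overlapped through a low E10.5 pool, and the differences were -1.55 ± 0.29 (SE; adjusted p = 7.47e-05) in GFP+ and -1.87 ± 0.29 (SE; adjusted p = 8.09e-06) in GFP- pools. Kcnk9, an acid-sensitive leak channel of the TASK group, was listed at 0 in all 6 E10.5 GFP+ pools and had 2.37, 5.41 and 12.9 RPKM in E13.5 GFP+ and 0.273, 2.09 and 5.86 in E13.5 GFP- pools.

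Among calcium- and sodium-activated potassium channels 7 of 9 rose in each class. Kcnn3, the SK subunit that regularizes firing of dopamine neurons, had 1.33, 2.92 and 3.32 RPKM (lowest, median, highest) in E10.5 GFP+, 2.18, 2.86 and 3.87 in E10.5 GFP-, 14.4, 20.53 and 23.1 in E13.5 GFP+ and 5.81, 11.8 and 16.9 in E13.5 GFP- pools. The stages were apart in each class, and the rise was 2.48 ± 0.23 (SE; adjusted p = 9.28e-10) and 1.65 ± 0.23 (SE; adjusted p = 1.36e-06). The difference between the E13.5 classes, 0.74 ± 0.23 (SE; adjusted p = 0.0466), was close to the threshold and its call was lost in 17 fits without 1 pool (adjusted p up to 0.131). Kcnma1, the pore of the BK channel, went from medians of 0.118 and 0.217 to 4.35 and 5.31 RPKM (1.70 ± 0.35 SE, adjusted p = 0.000209 and 2.27 ± 0.35 SE, adjusted p = 6.91e-06). Its neuronal beta subunit Kcnmb4 had medians of 5.35, 5.84, 10.7 and 18.9 RPKM, with the highest E10.5 GFP+ pool at 22.2, and passed in GFP- pools alone (1.60 ± 0.46 SE, adjusted p = 0.00557), while the interaction did not pass (adjusted p = 0.4). Of the rows tied to 1 transcript, that of Kcnb2 had medians of 0.189, 0.203, 3.50 and 2.96 RPKM and rose in both classes, and that of Kcnmb4 did not pass and reached at most 5.70. Reads shared between a gene's rows could be split by the authors' counting.

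**Figure D2:**
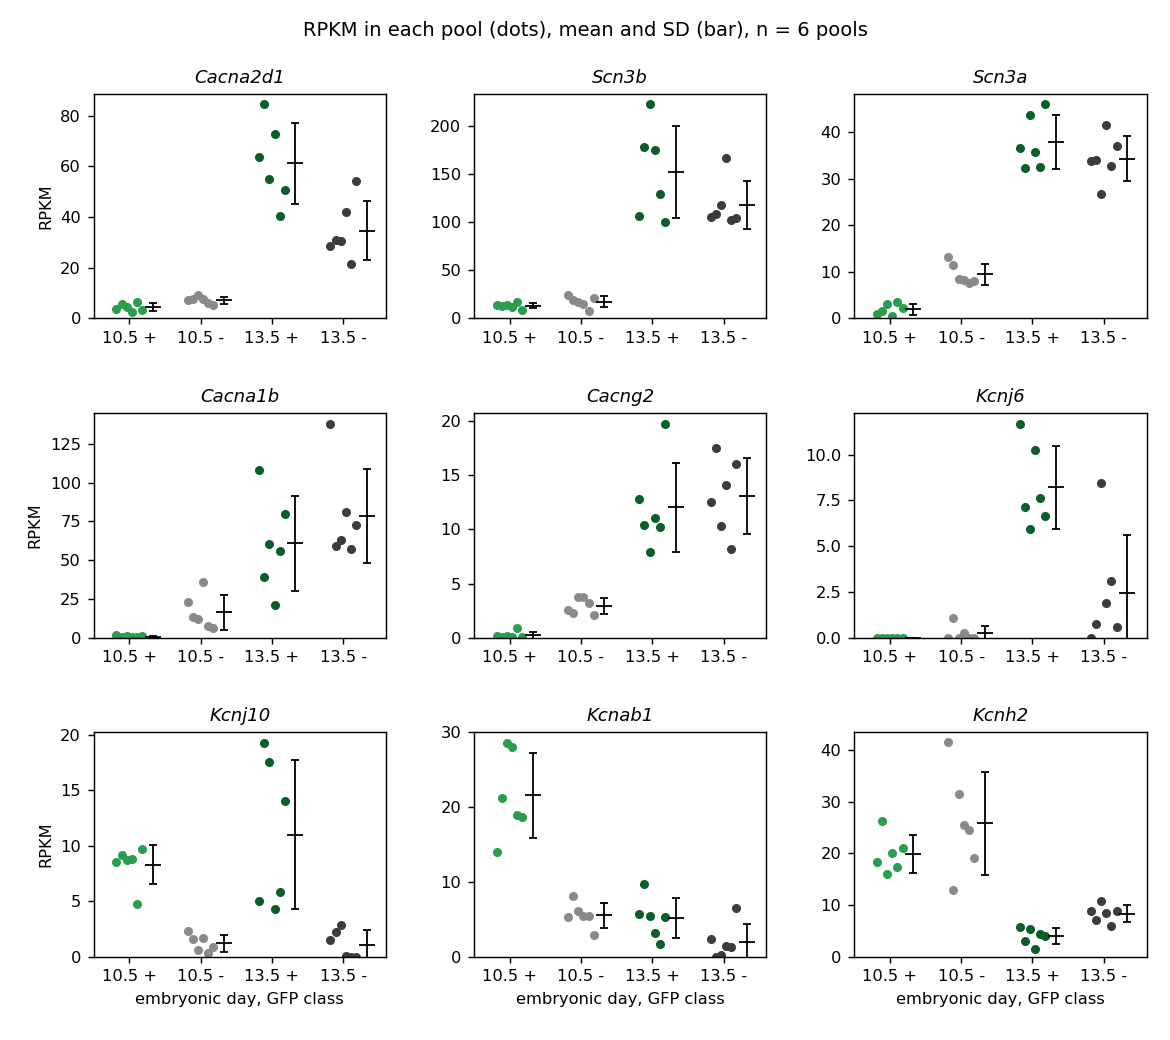
RPKM (y axis) of 9 channel genes in each pool (dots) of the 4 groups (x axis: embryonic day and GFP class), with the mean and SD of 6 pools beside them, the SD bars cut at 0. Cacna2d1, Scn3b, Scn3a, Cacna1b and Cacng2 are high at E13.5, and Kcnj6 mainly in the E13.5 GFP+ pools. Kcnj10 is high in GFP+ pools of both stages, Kcnab1 in E10.5 GFP+ pools, and Kcnh2 in both classes at E10.5.

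The GFP classes were then compared within each stage. At E10.5, 9 of the 79 rows were lower in GFP+ pools and 2 were higher, where 8.64% of all genes tested were lower and 4.51% higher, against 11.4% and 2.53% of the rows. At a pseudocount of 0.1, 18 rows were lower and 1 higher (22.8% and 1.27% of the rows, where 8.59% and 3.86% of all genes were called), so the share of lower rows lay near the background at a pseudocount of 1 and above it at 0.1. Among the lower rows were Cacna1b (-3.25 ± 0.37 SE, adjusted p = 3.19e-07), Kcnk10 (-2.32 ± 0.29 SE, adjusted p = 1.89e-06), Scn3a (-1.90 ± 0.23 SE, adjusted p = 6.95e-07), Cacng2 (-1.69 ± 0.24 SE, adjusted p = 1.23e-05), Kcnip1 (-1.53 ± 0.37 SE, adjusted p = 0.00489), Cacnb1, Scn2a1 and Cacng3. The higher rows were Kcnj10 and Kcnab1 (1.79 ± 0.38 SE, adjusted p = 0.0014), the latter call being lost at a pseudocount of 0.1 (adjusted p = 0.05). All 12 neuronal markers were also lower in E10.5 GFP+ pools, as were 7 of 8 red cell, 9 of 9 microglia, 6 of 7 mesenchyme markers tested, and all 5 GABAergic neuron markers. Higher were 5 of 11 progenitor and 4 of 5 subthalamic lineage markers. The part of these lists was not tested. After scaling to the same total without globin genes, 8 rows were lower and 2 higher.
At E13.5, 6 rows were higher and 3 lower in GFP+ pools, where 3.42% of all genes tested were higher and 3.74% lower. The higher rows were Kcnj10, Kcnj6, Kcnab1 (1.27 ± 0.38 SE, adjusted p = 0.0387, lost in 8 fits without 1 pool), Kcnip3, Cacna2d1 and Kcnn3, and the lower ones Cacna2d2, Cacng3 and Kcnh2. Progenitor markers were higher in E13.5 GFP+ pools too (7 of 11), and so were all 6 dopamine neuron markers and 4 of 5 subthalamic lineage markers. All 5 GABAergic neuron markers were lower, with a summed level of 4.20 to 26.96 RPKM in E13.5 GFP+ and 230.7 to 302.1 RPKM in E13.5 GFP- pools. The part of these lists in the channel differences was not tested. The number of lower rows was 1 at a pseudocount of 0.1 and 5 at a pseudocount of 5, and the number of higher rows was 3 without a filter on low values or with only the groups compared in the fit. The number of higher rows also fell to 3 without E13.5 GFP+ replicate 2, 4 or 6 or GFP- replicate 3, and the number of lower rows was 5 without GFP+ replicate 3. The E10.5 and E13.5 contrasts share no pool but use the same estimate of the spread. Kcnj10 and Kcnab1, both of the higher rows at E10.5, were higher again at E13.5, where they made up 33.3% of the list, and Cacng3 was lower at both stages (11.1% and 33.3% of the lists).

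The difference between the stage changes was tested as an interaction. It was called higher in GFP+ pools for 8 rows and lower for 1, where 3.93% and 1.9% of all genes were called. Among the former were Cacna1b (2.78 ± 0.52 SE, adjusted p = 0.00109), Scn3a (2.04 ± 0.32 SE, adjusted p = 0.000144), Kcnj6 (adjusted p = 0.0183), Kcnk10 (1.93 ± 0.41 SE, adjusted p = 0.00408), Kcnip3 (1.71 ± 0.50 SE, adjusted p = 0.0417), Cacng2 (1.56 ± 0.34 SE, adjusted p = 0.00503) and Cacna2d1 (1.43 ± 0.31 SE, adjusted p = 0.00478), and the row with the smaller change in GFP+ pools was Cacng4 (-0.90 ± 0.25 SE, adjusted p = 0.0261). For Cacna1b, Scn3a, Kcnk10 and Cacng2 the GFP+ pools began below the GFP- pools at E10.5 and overlapped with them at E13.5. For Kcnj6, Kcnip3 and Cacna2d1 the GFP+ pools ended higher. All 12 neuronal markers had the same kind of interaction, and their part was not tested. The calls of Cacna1b and Cacng2 were lost at a pseudocount of 5 (adjusted p = 0.0566 and 0.175), that of Kcnj6 at a pseudocount of 0.1 (0.0637), that of Kcnip3 in 13 fits without 1 pool, and that of Cacng4 without E10.5 GFP+ replicate 2 or E13.5 GFP- replicate 4. Among rows called in this test, the promoter windows of Cacna1b, Cacng2 and Kcnip3 hold the E-box core. Those of Cacna2d1, Kcnj6 and Kcnk10 do not. The core also lies in windows of genes not called here, such as Kcnd3 and Kcnn1, and no link was tested.

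**Figure D3:**
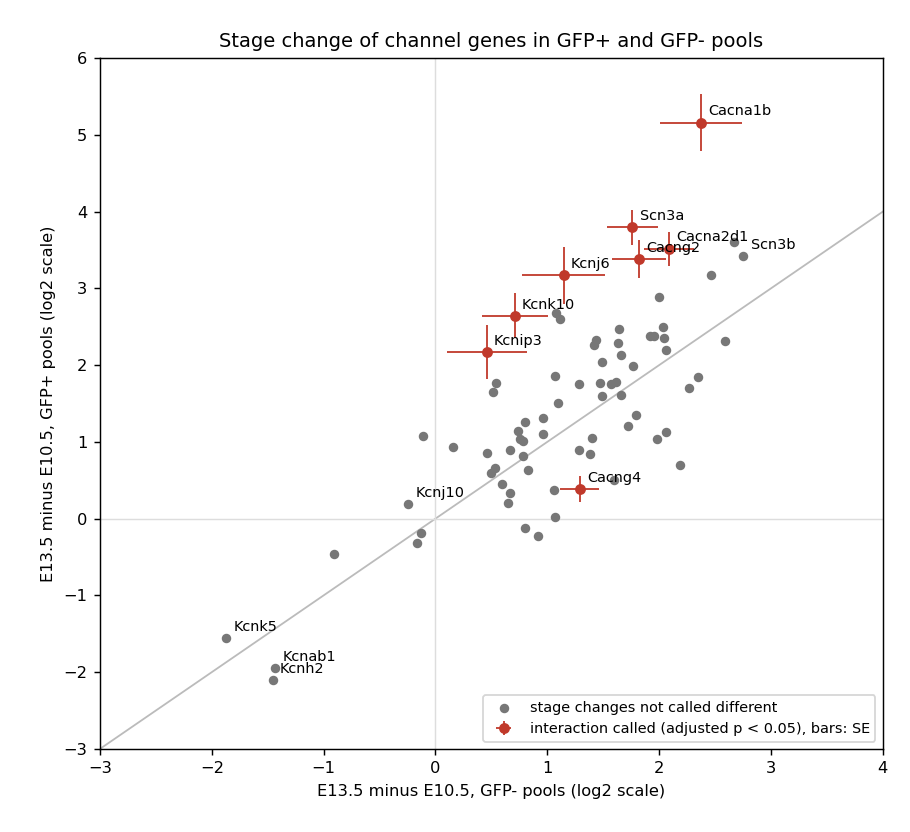
Log2 difference between E13.5 and E10.5 of the channel genes reported here in GFP- pools (x axis) and in GFP+ pools (y axis), with the line of equal change. Rows called in the interaction test are red with bars of 1 SE, and all but Cacng4 lie above the line.

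Other excitability genes outside the symbol rule, a list of 36 with 32 tested, gave the setting. With stage 23 rose and 2 fell in GFP+ pools, and 27 rose and 3 fell in GFP- pools. Over all genes tested 22.1% rose and 29.6% fell in GFP+ pools, and 19.7% rose and 26.9% fell in GFP- pools. Jph4, which tethers the endoplasmic reticulum to the cell membrane, rose by 4.38 ± 0.19 (SE; adjusted p = 6.29e-16) on the log2 scale in GFP+ and 3.22 ± 0.19 (SE; adjusted p = 1e-12) in GFP- pools. Slc12a5, the neuronal chloride extruder, rose by 2.69 ± 0.25 (SE; adjusted p = 2.49e-09) in GFP- pools. In GFP+ against GFP- pools 3 were higher and 14 lower at E10.5, among them the axonal adhesion gene Cntn2 (-2.07 ± 0.26 SE, adjusted p = 1.33e-06) and, higher, Lgi1 (2.34 ± 0.36 SE, adjusted p = 3.79e-05). At E13.5 the higher count was 0 and 2 were lower, Fgf14 (-1.19 ± 0.37 SE, adjusted p = 0.0485) and Stac2 (-1.07 ± 0.32 SE, adjusted p = 0.0418). Over all genes tested 4.51% were higher and 8.64% lower at E10.5, and 3.42% were higher and 3.74% lower at E13.5. The interaction was called higher in GFP+ pools for 8 and lower for 2, where 3.93% and 1.9% of all genes tested were called. The part of the neuronal markers in these counts was not tested.
REST represses many channel genes outside neurons. Its gene Rest fell with stage (log2 difference -2.08 ± 0.28 (SE; adjusted p = 7.75e-07) in GFP+ and -1.54 ± 0.28 (SE; adjusted p = 6.69e-05) in GFP- pools). Of 8 genes for REST and its partners, 4 fell and 2 rose in GFP+ pools, and 4 fell and 1 rose in GFP- pools. The summed level of the 8 genes had medians of 398, 414, 372 and 398 RPKM in the 4 groups.

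Single cells covered the days between the pooled stages. A gene was taken as present in a cell at 10 RPKM or more, which for a 5 kb transcript was about 68.01 reads at the median depth of 1.36 M reads, and intervals are exact 95% Clopper-Pearson intervals that cover counting error only. Where a gene was present in 0 cells, the limit given is 3 cells of those examined, in place of the interval. Each stage is 1 sample, so no test between stages was possible. Of the 79 rows 9, 26, 25 and 32 were present in at least 10% of cells at E10.5, E11.5, E12.5 and E13.5 in turn, and a median cell held 3, 6, 7 and 9 of them. These rows were chosen on the pools, 34 of them only through E13.5 pools, so the rule bears on these counts too. The shares over all genes in cells are not given. Median depth was 1.30, 0.746, 1.40 and 1.77 M reads at these stages. Scn3a was present in 5.84% (2.55 to 11.2) of cells at E10.5, 36.7% (26.8 to 47.5) a day later, 48.3% (40.8 to 55.9) at E12.5 and 55.9% (47.4 to 64.1) at E13.5. Cacna2d1 was present in 8.03% (4.08 to 13.9) at E10.5 and already in 48.9% (38.2 to 59.7) at E11.5, then in 50% (42.4 to 57.6) and 44.1% (35.9 to 52.6), so that its E11.5, E12.5 and E13.5 intervals overlapped. The share of Cacna1b was 5.11%, 20%, 21.9% and 27.6%. Reporter class shifted between the days too. Of cells with the EGFP transcript at 10 RPKM or more, 47.03% were taken at E10.5, and of cells below that level 10.3%. Scn3a was present in 2.91% of E10.5 and 38.5% of E13.5 cells with EGFP, and in 14.7% and 62.3% of those without. Kcnab1 was present in 35.9% and 10.3% with EGFP, and in 14.7% and 3.77% without. The part of this shift in the shares by stage was not tested.
A slower course was seen for other genes. Cacng2 was present in 1.46% (0.177 to 5.17), 6.67% (2.49 to 13.9), 22.5% (16.6 to 29.3) and 35.9% (28.1 to 44.2) of cells at the 4 stages. Scn3b had 24.8% at E10.5 and 23.3% at E11.5, and then 41.6% and 52.4%. Cacnb3 was the most widespread gene at E10.5 with 40.9% (32.6 to 49.6), and had 64.1% (55.8 to 71.9) at E13.5. Cacnb1 went from 8.03% to 29.7%, Kcnip1 from 5.11% to 24.1% and Cacng4 from 14.6% to 30.3%. Kcnab1 and Kcnh2 had lower shares later, as in the pools: Kcnab1 30.7% (23.1 to 39.1), 8.89%, 9.55% and 5.52% (2.41 to 10.6), and Kcnh2 35.04% (27.1 to 43.6), 16.7%, 7.87% and 13.1% (8.08 to 19.7). The E12.5 cells carry titles with the letter C (63 cells) or F (the others), and their shares were not alike: Cacng2 was present in 11.1% of C and 28.7% of F cells, Cacna1b in 12.7% and 26.96%, Cacnb1 in 14.3% and 30.4% and Scn3b in 28.6% and 48.7%. These differences were not tested, and the labels do not say what the letters stand for.

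**Figure D4:**
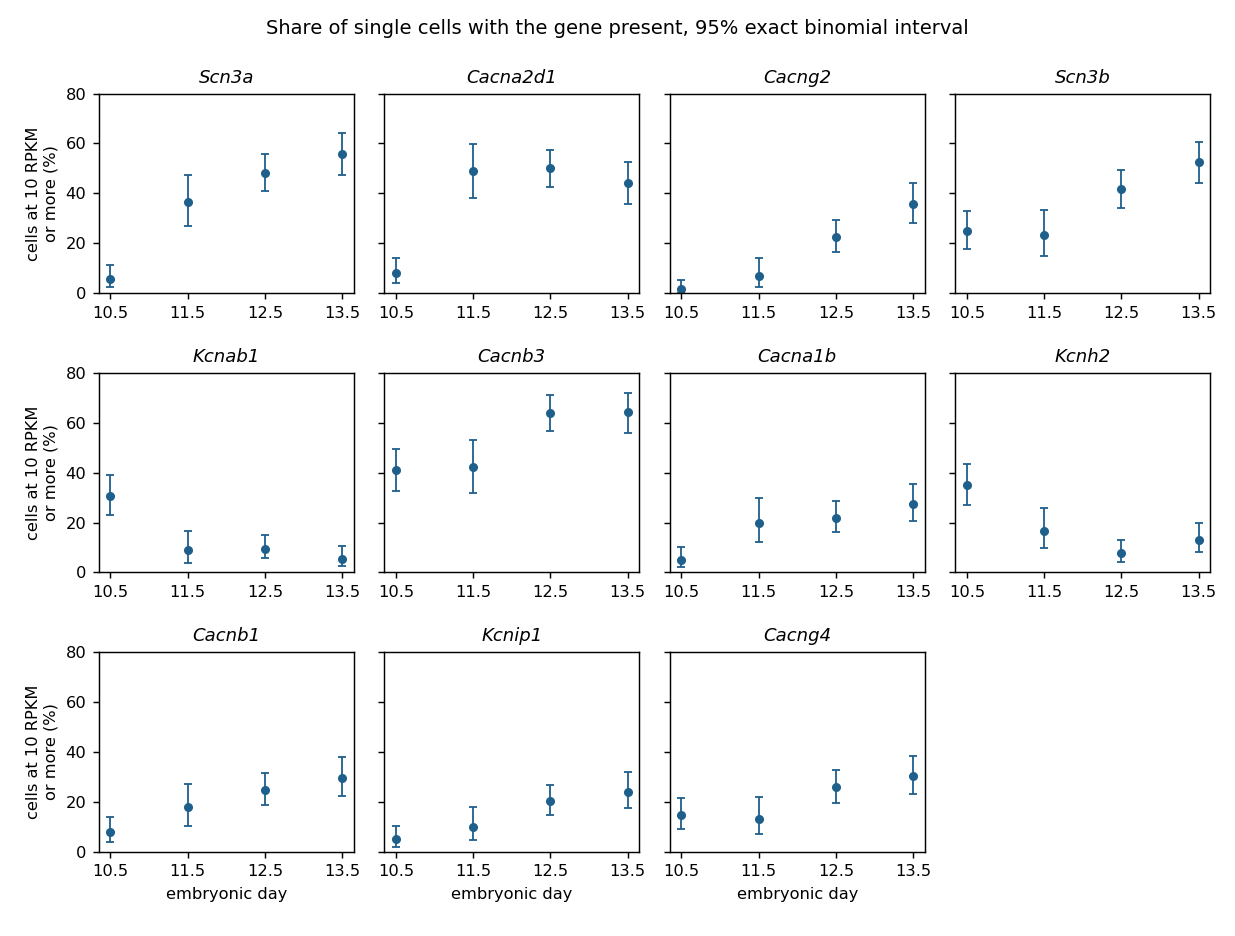
Share of single cells (y axis, %) with each of 11 channel genes at 10 RPKM or more at each embryonic day (x axis), with exact 95% binomial intervals. Scn3a and Cacna2d1 are above 35% from E11.5 on, Cacng2 and Scn3b are higher at later days, and Kcnab1 and Kcnh2 are highest at E10.5.

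Cells were then gated by marker genes, each present at 10 RPKM or more or absent below it. Cells with Mapt and Stmn2, which postmitotic neurons express, numbered 251 (6 at E10.5, 32 at E11.5, 42.6% of them at E12.5 and 42.2% at E13.5), and cells with Sox2 and Vim but no Mapt, as in progenitors, numbered 83 (55, 11, 11 and 6). The gates thus differ in stage, and their median depths were 1.56 and 1.42 M reads. A median of 10 channel rows was present in a cell with Mapt and Stmn2 and of 4 in a cell with Sox2 and Vim, and 32 and 12 rows were present in at least 10% of cells. The rule bears on these counts as well, and the shares over all genes are not given. Scn3a was present in 65.7% (59.5 to 71.6) of the former and 3.61% (0.752 to 10.2) of the latter, and Cacna2d1 in 55.4% (48.997 to 61.6) and 9.64% (4.25 to 18.1). Cacng2 was in 39.4% (33.4 to 45.8) of cells with Mapt and Stmn2 and in 0 of 83 with Sox2 and Vim, which allows a share of up to 3.61% (3 of 83). The genes with the widest gaps the other way were Kcnab1 (22.9% (14.4 to 33.4) against 4.78% (2.49 to 8.20)), Kcnh2 (30.1% (20.53 to 41.2) against 17.1% (12.7 to 22.4)), Kcnj10 (15.7% (8.61 to 25.3) against 3.59% (1.65 to 6.70)) and Kcne1l. Cacnb3 and Cacna1h had appreciable shares in both gates, at 76.5% and 38.6% and at 41.04% and 24.1%.

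**Figure D5:**
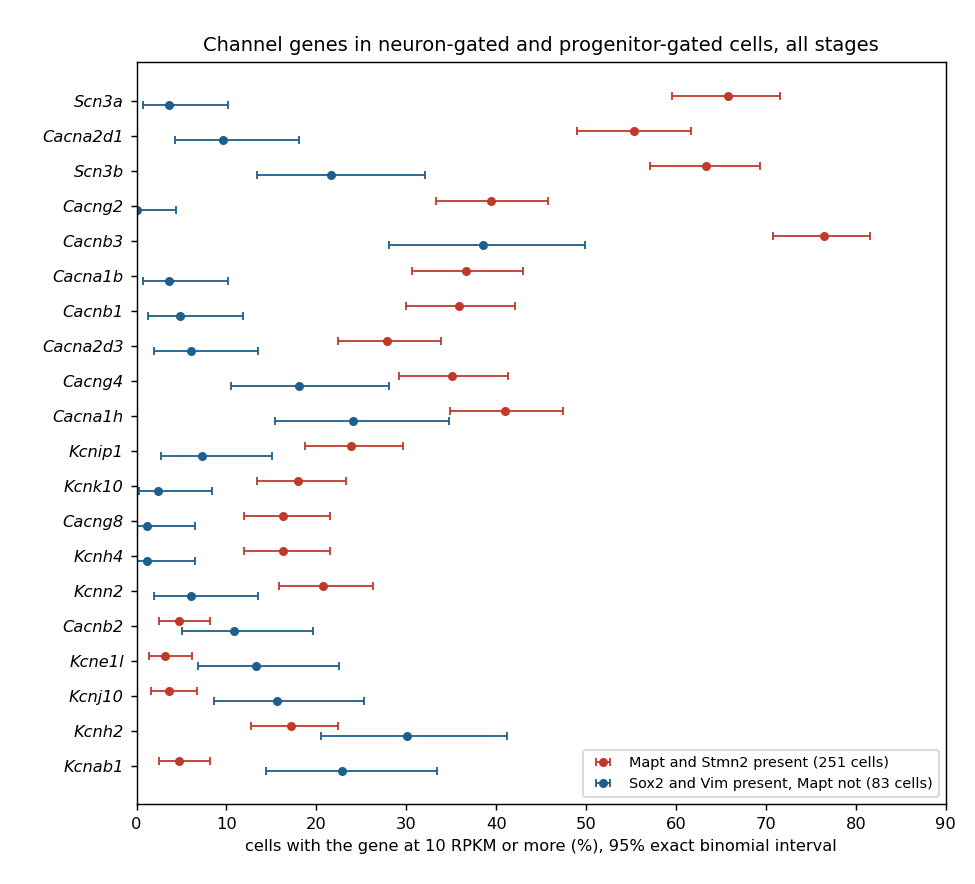
Share of cells (x axis, %) with a channel gene at 10 RPKM or more among 251 cells with Mapt and Stmn2 (red) and 83 cells with Sox2 and Vim but no Mapt (blue), with exact 95% binomial intervals, for 15 genes with a large positive and 5 with a large negative difference. Scn3a and Cacna2d1 have the widest gaps shown, and Kcnab1, Kcnh2 and Kcnj10 lie on the other side.

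Within cells that had Mapt and Stmn2, the shares at the 3 later stages lay close together for some channels and not for others. Scn3a was present in 59.4%, 65.4% and 66.04% of them at E11.5, E12.5 and E13.5, and Cacna2d1 in 62.5%, 57.9% and 50%. Cacng2, by contrast, was present in 18.8% (7.21 to 36.4), 36.4% (27.4 to 46.3) and 49.1% (39.2 to 58.95), Cacna1e in 0%, 9.35% and 24.5%, and Scn3b in 40.6%, 64.5% and 66.98%. Median depth in this gate was 0.787, 1.40 and 1.82 M reads at these stages, and its part was not tested. The 6 cells of this gate at E10.5 went another way for some genes. Their median depth was 5.09 M reads, higher than at the later stages, and its part was not tested either. Scn3a and Scn3b were each present in all 6 (interval 54.1 to 100%), Cacna2d1 in 4, Cacng2 in 2 and Cacna1e in 0. With 0 of 32 cells, the E11.5 share of Cacna1e is allowed to be up to 9.38% (3 of 32). Subunits that can share a channel were set side by side in the 251 cells. Scn3b was present in 63.03% of the cells with Scn3a and in 63.95% of those without, and Cacna2d1 in 55.4% of the cells with Cacna1b and 55.3% of those without. Cacnb3 was present in 85.9% of the cells with Cacna1b and 71.1% of those without.

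In single cells the EGFP transcript at 10 RPKM or more stood in for the sorted class. A cell below that level need not be GFP-. Among E13.5 cells with Mapt and Stmn2, 19 had Th and Nr4a2, while 14 had EGFP. At E13.5, 39 cells had EGFP and the others had not, and a median of 5 channel rows was present in the former and of 10 in the latter. The make-up of the classes differed, since 14 of the 39 had Mapt and Stmn2, and 92 of the others had both. Among cells with Mapt and Stmn2 the medians were 10 rows with EGFP and 12 without. Cacna2d1 was present in 85.7% (57.2 to 98.2) of the 14 and 44.6% (34.2 to 55.3) of the 92, and Kcnj10 in 21.4% (4.66 to 50.8) and 2.17% (0.264 to 7.63). Over all E13.5 cells with and without EGFP Cacna2d1 had 48.7% and 42.5%, and Kcnj10 23.1% and 1.89%.
Dopamine-gated cells (Th and Nr4a2) and cells with Barhl1, a gene of the subthalamic lineage, but without Th were compared among cells with Mapt and Stmn2, 36 and 68 over all stages. Cacna2d1 was present in 38.9% (23.1 to 56.5) of the former and 76.5% (64.6 to 85.9) of the latter. Kcnd3 was the reverse, at 44.4% (27.9 to 61.9) and 8.82% (3.31 to 18.2), as were Cacng2, at 55.6% (38.1 to 72.1) and 29.4% (18.98 to 41.7), and Scn3b, at 75% (57.8 to 87.9) and 42.6% (30.7 to 55.2). At E13.5 alone, with 19 and 35 cells, Cacna2d1 had 26.3% (9.15 to 51.2) and 74.3% (56.7 to 87.5), and Kcnd3 52.6% (28.9 to 75.6) and 8.57% (1.80 to 23.1). Kcnj6, higher in E13.5 GFP+ than GFP- pools, was present in 0 of the 36 dopamine-gated neurons, which allows a share of up to 8.33% (3 of 36), and in 4.41% (0.919 to 12.4) of the 68 Barhl1 neurons. Restricting the 2 gates to cells with Mapt and Stmn2, and the choice of the genes named in this comparison, came after the values were seen.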

How the data were processed

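Pools and single cells were measured by Smart-seq2 RNA sequencing. The authors deposited RPKM values per gene for the pools and, as the values show, log2(RPKM + 0.001) for the single cells, which was turned back into RPKM. Reads were aligned with STAR 2.3.0 to mm10, per the submitters' processing notes, and the tool used for counting was not given in the sources used here. RPKM divides by a library's total, so abundant globin reads in a pool lower its other genes. Depth was estimated from the steps of the low RPKM values (33.1% of those values in pools and 31.6% in cells came out whole within 0.05), which was too few for a count test.

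Pools were compared with limma 3.58.1 in R 4.3.3 on log2(RPKM + 1), a log2 scale computed here from the deposited RPKM, with 4 group means, 5 contrasts, a variance trend and Benjamini-Hochberg adjustment over the 15871 genes with at least 1 RPKM in at least 6 pools. A log2 difference on this scale understates the change of low genes. Cells were summarised in Python 3.11.15 (pandas 2.3.3) by exact binomial intervals. The method was tested on simulated data. No pair of pools was identical, and correlations within groups were 0.934 to 0.960. Gene positions come from GENCODE M21.

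The channel genes, the marker lists and the tests were chosen with earlier results of these data known. Values are given for Cacna2d1, the 2 highest rows of each role, up to 10 called rows per contrast and direction with a mean of 5 RPKM or more in the higher group, Kcnj6, Kcnd3, Kcnn3 and Cacna1d, the 12 genes with the largest change in share of cells, and the 4 other excitability genes with the largest difference per contrast. Further genes were named after their values were seen, to complete a family or a count. Some genes that count among the rows are not reported here by name. Alternatives were other pseudocounts (0.1 and 5), no filter, 2 other scalings, no variance trend, only the groups compared, each pool left out, other thresholds and subsets of cells.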

Additional observations from a re-analysis of the deposited data

Results flagged for a closer look

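In 5 groups of 6 pools (4.67% of those checked), 1 pool lay far from the rest by Dixon's test, and chance alone marks about 1 in 20 groups. Cacna1h was 11.3 RPKM in E13.5 GFP+ replicate 3, against 18.3 to 24.4 in the other 5 pools. Kcnd3 was 0.466 RPKM in E10.5 GFP- replicate 6, against 1.70 to 2.65. Kcnj10 was 4.78 RPKM in E10.5 GFP+ replicate 5, against 8.55 to 9.70, and this low pool was still above every E10.5 GFP- pool. Kcnn3 was 1.33 RPKM in E10.5 GFP+ replicate 2, against 2.75 to 3.32. Scn3b was 166.9 RPKM in E13.5 GFP- replicate 4, against 101.9 to 117.5.

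The stage change differed between GFP+ and GFP- pools, by the interaction term of limma, for several channel genes. The difference in log2 change was 2.78 for Cacna1b, 2.04 for Scn3a, 2.02 for Kcnj6, 1.93 for Kcnk10, 1.71 for Kcnip3, 1.56 for Cacng2, 1.43 for Cacna2d1 and -0.90 for Cacng4. The fitted value of Kcnj6 depends on the pseudocount, because the gene was listed at 0 in all 6 E10.5 GFP+ pools.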

How the results depend on the processing

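No paired analysis was possible because the replicate numbers of the pools follow the order of the samples and tie no pool to another. At a pseudocount of 0.1, 1 channel gene was called higher and 18 were called lower in E10.5 GFP+ pools (2 and 9 at a pseudocount of 1), and 1 was called lower in E13.5 GFP+ pools (3 at a pseudocount of 1). At a pseudocount of 5, 5 were lower at E13.5. Without a filter on low values, and with only the groups compared in the fit, 3 were higher at E13.5 (6 with all 4 groups). The count with a smaller stage change in GFP+ pools was 2 at a pseudocount of 5 and after quantile normalization (1 otherwise), and the fit of only the groups compared could not give an interaction. Leaving out 1 pool at a time gave 3 to 7 higher and 2 to 5 lower at E13.5, and 0 to 2 with a smaller stage change. That last count was 0 without E10.5 GFP+ replicate 2 or E13.5 GFP- replicate 4, and 2 without E10.5 GFP+ replicate 1, E10.5 GFP- replicate 6, E13.5 GFP+ replicate 1 or E13.5 GFP- replicate 1. In cells, 19 rows were present in at least 10% of E10.5 cells at a threshold of 1 RPKM and 15 at 5 RPKM (9 at 10 RPKM), and 20 in cells with Sox2 and Vim at 1 RPKM (12 at 10 RPKM).

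Of 79 called differences of the 32 named rows, 17 lost their call in at least 1 setting and 0 changed direction. In GFP- pools quantile normalization moved the median stage difference of all genes from -0.113 to -0.008. The share of 12 named genes at 4 stages moved beyond its interval in 20 of 48 cases at 1 RPKM and in 0 of 48 at 5 RPKM. Depth limits the low rows: at 1.36 M reads, 1 RPKM of a 5 kb transcript is about 6.801 reads in a cell.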

Other observations

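Kcnu1 encodes Slo3, a potassium channel known from sperm, and it was singled out after its values were seen. Its lowest, median and highest levels were 0, 0 and 3.35 RPKM in E10.5 GFP+ pools, 0, 0.882 and 2.99 in E10.5 GFP-, 3.15, 6.16 and 11.3 in E13.5 GFP+ and 2.5, 6.68 and 9.10 in E13.5 GFP- pools. It rose with stage in both classes (2.38 ± 0.41 SE, adjusted p = 1.86e-05 in GFP+ and 1.92 ± 0.41 (SE; adjusted p = 0.000317) in GFP- pools, by limma). Single cells held it at 10 RPKM or more in 2.81% (0.918 to 6.43) at E12.5 and 4.14% (1.53 to 8.79) at E13.5. Whether these reads cover the known Kcnu1 transcript was not tested, since the tables give 1 value per gene.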
